A study of Mus musculus with 43 samples.

Results

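The genes described here are 36 genes whose products act in G2 phase and mitosis, followed in phagocytes that were sorted out of lungs of newborn mice breathing room air or high oxygen. They were chosen by symbol as a set with a common function, and all 36 were found among the 37991 Ensembl genes of the count table (for example Mki67, ENSMUSG00000031004, Top2a, ENSMUSG00000020914, Ccnb1, ENSMUSG00000041431, and Cdk1, ENSMUSG00000019942). By role they fall into 6 groups. There are 6 cyclins, cyclin-dependent or mitotic entry kinases (Ccna2, Ccnb1, Ccnb2, Cdk1, Plk1, Aurka), the 2 proliferation and chromatin genes Mki67 and Top2a, and 11 genes for spindle motors and organisers. A further 7 encode kinetochore and centromere proteins, 3 encode members of the chromosomal passenger complex, and 7 act in the spindle checkpoint or with the anaphase-promoting complex.

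A dividing cell copies its DNA in S phase, passes through G2 and then separates its chromosomes in mitosis. Cyclin A and cyclin B bound to Cdk1 drive entry into mitosis, kinetochores attach chromosomes to the spindle, and the anaphase-promoting complex with its activator Cdc20 marks cyclin B for destruction so that the cell can divide. Most genes of this late programme are transcribed in a short part of the cell cycle, so their transcripts are known as markers of cycling cells. Macrophages of the lung can renew by local division, and the alveolar pool grows in this way shortly after birth.

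Pups of the inbred C57BL/6 strain were taken within 6 hours of birth, litters were mixed, and pups were assigned at random to normoxia or to hyperoxia at an inspired oxygen fraction (FiO2) of 0.9. After 1.5 days, digested lungs were sorted into 4 populations: alveolar macrophages (AM, expressing SiglecF and CD11c), dendritic cells (DC, rich in MHC class II), Ly6Chi CD11clo monocytes/macrophages (Ly6Chi) and Ly6Clo CD11chi monocytes/macrophages (Ly6Clo). Normoxia was represented by 6 libraries each of DC, AM and Ly6Chi and by 5 of Ly6Clo, and hyperoxia by 5 libraries of each population, 43 in all. The only labelled differences between the 8 groups are population and oxygen, no group carries an allele or transgene, and every library carries 1 of 3 litter numbers (93, 100 and 108). Litter 100 gave 1 hyperoxic library per population. Litters were mixed before pups were assigned, yet each library carries 1 litter number, so libraries that share a number may not be from siblings. The number was used as labelled.

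Libraries held between 551960 and 2403861 counts assigned to genes, and 5 of them held fewer than 1000000. These 5 were AM normoxia 3, AM hyperoxia 1, 2 and 3, and Ly6Clo hyperoxia 3. Counts of a member ranged from 0 to 900 in a library, and the 36 genes together took between 0.0333% (Ly6Clo hyperoxia 3) and 0.457% (Ly6Chi hyperoxia 5) of all counts. The transcripts of the sorting antigens followed the labels: Siglecf averaged 131 ± 33.0 CPM (counts scaled to 1000000 per library, SD, n = 6) in normoxic AM and 3.01 to 19.8 CPM in the other normoxic populations. H2-Ab1, an MHC class II gene, averaged 1190 ± 257 CPM in normoxic DC and 96.1 to 176 CPM elsewhere in normoxia. Ly6c2 averaged 421 ± 71.9 CPM in normoxic Ly6Chi cells, 138 ± 27.8 CPM in DC and 19.1 ± 6.15 CPM in Ly6Clo cells, and Itgax, which encodes CD11c, averaged 8.18 ± 4.73 CPM in Ly6Chi cells against 158 to 209 CPM in the other populations. The labels do not tie libraries to pups, so libraries of different populations may come from the same animal, and p-values measure the spread between libraries.

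The promoters of these genes are shown because they carry the sequence features by which the late cell cycle programme is known. The cell cycle genes homology region, or CHR (TTTGAA), is bound by the MuvB complexes, which repress these genes in resting cells and activate them in G2, and the CCAAT box (CCAAT) is bound by NF-Y. Sites of E2F factors (TTTGGCGC or TTTCGCGC) are known from genes of S phase. The 120 bases that precede the annotated start are printed for 7 genes, 5′ to 3′ on the gene's strand, from RefSeq on build GRCm38.p6. Capitals mark a CHR, a CCAAT box or an E2F word on either strand. Mki67, Top2a, Ccnb1 and Cdk1 are followed in every comparison. Ccnb2, Cdc20 and Spc25 were picked from these data because their levels did not overlap between normoxic AM and Ly6Chi cells. Of the 36 genes, 2 lay wholly higher and 2 wholly lower in AM, against 11.1% and 13.9% of all genes.
Mki67, chr7:135716380-135716499 (minus strand): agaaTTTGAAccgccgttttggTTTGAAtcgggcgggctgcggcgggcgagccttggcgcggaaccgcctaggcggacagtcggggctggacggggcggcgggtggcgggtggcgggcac
Top2a, chr11:99024190-99024309 (minus strand): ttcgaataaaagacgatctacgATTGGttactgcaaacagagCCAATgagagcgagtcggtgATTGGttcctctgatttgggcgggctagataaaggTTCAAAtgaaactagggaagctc
Ccnb1, chr13:100786487-100786606 (minus strand): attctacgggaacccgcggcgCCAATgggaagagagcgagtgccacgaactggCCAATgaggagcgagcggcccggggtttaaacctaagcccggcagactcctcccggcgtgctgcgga
Cdk1, chr10:69352913-69353032 (minus strand): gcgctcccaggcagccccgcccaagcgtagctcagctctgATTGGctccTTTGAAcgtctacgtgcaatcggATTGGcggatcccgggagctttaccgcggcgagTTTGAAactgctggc
Ccnb2, chr9:70421555-70421674 (minus strand): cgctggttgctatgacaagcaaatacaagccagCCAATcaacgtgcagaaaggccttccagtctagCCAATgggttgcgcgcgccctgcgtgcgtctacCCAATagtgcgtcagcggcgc
Cdc20, chr4:118437344-118437463 (minus strand): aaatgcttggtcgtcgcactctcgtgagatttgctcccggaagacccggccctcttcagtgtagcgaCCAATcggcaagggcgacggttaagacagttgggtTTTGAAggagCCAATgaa
Spc25, chr2:69206214-69206333 (minus strand): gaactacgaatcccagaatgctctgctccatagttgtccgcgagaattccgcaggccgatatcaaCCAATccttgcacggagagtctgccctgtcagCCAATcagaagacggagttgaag

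RefSeq promoters, taken as 250 bases before to 50 bases after each annotated start, were found for 32 of the 36 genes, with 35 promoters in all. A CHR was present in 68.6% of them (Wilson 95% interval 52.0 to 81.4%), against 17.9% of 32851 promoters of the genome. A CCAAT box was present in 80.0% against 37.4%, 2 or more CCAAT boxes in 48.6% against 11.7%, and both kinds of element in 62.9% against 6.95%. E2F words were found in 2.86% of the promoters of the mitotic genes, against 0.813% of all promoters and 27.8% of the promoters of a list of S phase genes. In that list a CCAAT box was present in 55.6% of promoters, 2 or more in 30.6% and a CHR in 8.33%. More CCAAT boxes than in all promoters are thus not particular to the mitotic genes. Before the start alone, a CHR was present in 28.6% of the members' promoters against 16.0% of all promoters, so many of the matches lie at or after the annotated start. In Mki67 a pair of CHR matches begin 116 and 98 bases before the start, in Cdk1 they begin 71 and 15 bases before it, and in Cdc20 18 bases before it. The printed CHR of Top2a begins 23 bases before the start, on the other strand. Ccnb2 has a CHR 167 bases before and another 5 bases after the start, and Spc25 has one 25 bases after it. Neither gene has a CHR in the printed stretch, and none was seen in that of Ccnb1, which holds a pair of CCAAT boxes. These matches are letters in a window and were not tested as binding sites.

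Per length of annotated exon, with the exons of all transcripts of a gene joined, Ccnb2 was the highest of the 36 genes. It stood at 111 CPM per kilobase of exon as the mean of the 8 group means. Ube2c followed at 40.4, Birc5 at 38.2, Cdca3 at 32.3 and Spc25 at 27.7 CPM per kilobase. The joined length was 1531 bases for Ccnb2 and 8390 for Mad2l1. It can exceed the length of any 1 transcript, so the order also depends on the annotation. Ccnb2 encodes a B-type cyclin, Ube2c the ubiquitin-conjugating enzyme of the anaphase-promoting complex, Birc5 (survivin) a chromosomal passenger protein, Cdca3 a trigger of mitotic entry and Spc25 a subunit of the Ndc80 complex that binds spindle microtubules. Cdk1 stood at 22.5, Mki67 at 13, Top2a at 11.5 and Ccnb1 at 10.5 CPM per kilobase. The lowest were the kinesin gene Kif2c at 3.35, the kinetochore gene Cenpf at 2.89 and the checkpoint kinase gene Ttk at 1.99 CPM per kilobase. Kif20a, Prc1, Ube2c, Ccna2, Tacc3, Cenpk, Cdca8, Nusap1, Plk1 and Cdc20 overlap exons of a gene on the other strand by 1271, 911, 592, 510, 289, 233, 232, 172, 156 and 53 bases, and Top2a overlaps one on its own strand by 122 bases. The library kit is not stated to keep strand, so reads of the partners in these overlaps cannot be told apart.

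Summarised per library as the mean log2 CPM of the 36 genes, normoxic AM held the highest mean, 6.23 ± 0.40 (SD, n = 6), with libraries at 6.60 and 6.49 in litter 93, 5.65 and 6.57 in litter 100 and 6.19 and 5.86 in litter 108. Normoxic Ly6Chi cells averaged 6.01 ± 0.36, with libraries at 5.60 and 5.82, 5.90 and 6.41, and 5.82 and 6.50 in the same litter order. Normoxic DC averaged 5.72 ± 0.48, with libraries at 6.20 and 6.22, 5.14 and 5.92, and 5.18 and 5.62. These 3 populations overlapped one another. Normoxic Ly6Clo cells were lowest and most spread, at 4.67 ± 1.06 (n = 5), with 5.19 and 6.06 in litter 93, 3.30 and 4.81 in litter 100 and 4.01 in litter 108. The plot of the mean level by library shows that the 2 Ly6Clo libraries of litter 93 lie above those of the other litters. In libraries of bulk RNA, fewer cells in division and less of these transcripts per dividing cell cannot be told apart.

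**Figure D1:**
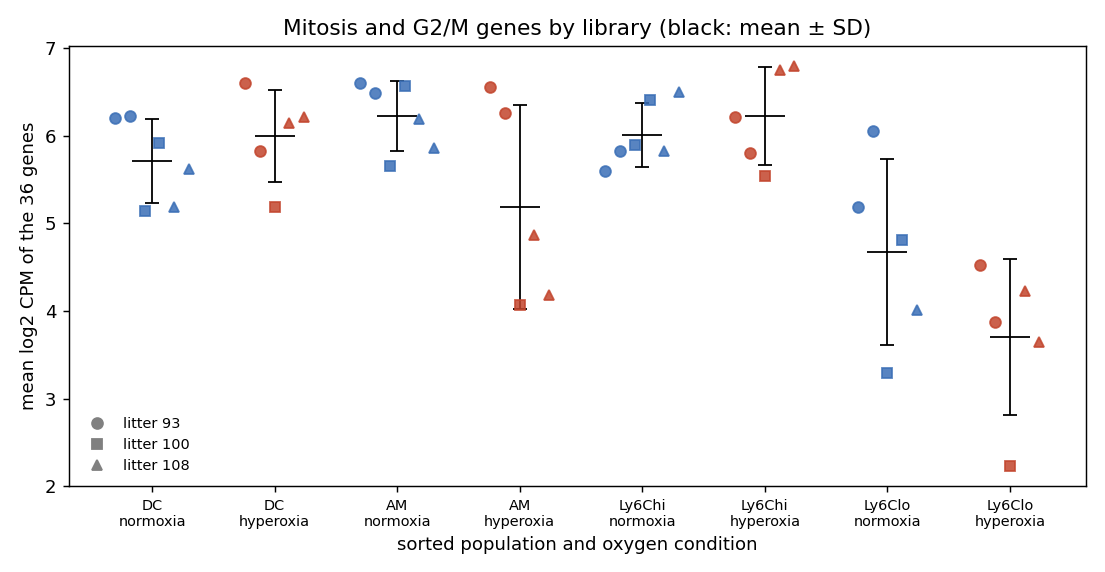
Each point is 1 library, placed by the mean log2 CPM of the 36 genes (vertical axis) within its sorted population and oxygen condition (horizontal axis), with the symbol giving the litter and black bars the group mean ± SD. Normoxic AM average 6.23 and normoxic Ly6Clo cells 4.67, and the 5 hyperoxic AM libraries split into 2 at 6.56 and 6.26 (litter 93) and 3 between 4.07 and 4.87.

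In normoxia the mitotic genes were lower in Ly6Clo cells than in AM for all 36 genes by sign, where 47.8% of all genes were, and 30 of them were called higher in AM. A gene is called when its Benjamini-Hochberg adjusted p in edgeR's quasi-likelihood test, taken over all genes tested, is under 0.05. Of all 11979 genes tested in this comparison, 7.28% were called higher in AM. The median log2 fold change (AM over Ly6Clo) was 1.35 for the 36 genes and -0.03 for all genes. By role, 5 of 6 cyclin and entry kinase genes, both Mki67 and Top2a, and 8 of 11 spindle genes were called higher. So were 6 of 7 kinetochore genes, all 3 passenger genes and 6 of 7 checkpoint or anaphase-promoting complex genes.

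Mki67, whose product coats mitotic chromosomes, ran from 160 through a median of 199 to 278 CPM in the 6 normoxic AM libraries, and stood at 117, 162, 80.0, 97.9 and 54.9 CPM in normoxic Ly6Clo libraries 1 to 5. The groups overlapped at the second Ly6Clo library (litter 93), and the log2 fold change was 1.09 ± 0.27 (SE, adjusted p = 0.00542). Ccna2, cyclin A2, ran from 92.6 through a median of 113 to 156 CPM in AM and stood at 63.5, 73.1, 11.8, 27.8 and 28.8 CPM in Ly6Clo cells. All 6 AM libraries lay above all 5 Ly6Clo libraries, with a log2 fold change of 1.58 ± 0.26 (adjusted p = 6.73e-05). Mad2l1, the checkpoint protein Mad2, was higher in AM by 1.34 ± 0.21 (adjusted p = 3.29e-05), the passenger gene Birc5 by 1.73 ± 0.28 (adjusted p = 7.55e-05) and the kinetochore gene Spc25 by 2.13 ± 0.36 (adjusted p = 0.000167), all on the log2 scale. Top2a, topoisomerase IIα, which untangles replicated DNA, was higher by 1.47 ± 0.44 (adjusted p = 0.0203). Ccnb1, cyclin B1, was higher by 1.44 ± 0.39 (adjusted p = 0.0113) and Cdk1 by 1.39 ± 0.36 (adjusted p = 0.00823). Cdc20 had the largest p of the 36, with a log2 fold change of 0.26 ± 0.41 (adjusted p = 0.694). Groups did not overlap for Bub1, Bub1b, Ccna2, Kif11 and Spc25, against 3.66% of all genes with AM wholly above Ly6Clo. Without litter 100 the count of called genes was 13, and without Ly6Clo normoxia 4 or 5 Top2a was no longer called (adjusted p = 0.0676 and 0.0552). Here and below, shares of all genes under such settings are not given, so changed counts were not read as particular to these genes. Of markers of other cell types, 3 of 10 endothelial and 1 of 12 epithelial genes were called higher in AM and 5 of 9 lymphoid and 3 of 12 neutrophil genes lower, and their part was not tested.

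Ly6Chi cells also exceeded Ly6Clo cells in normoxia for all 36 genes by sign, where 51.9% of all genes did, with a median log2 fold change of 1.18 against 0.03 over all genes. The test called 26 of 36 higher in Ly6Chi, against 15.7% of all genes tested. All 7 checkpoint or anaphase-promoting complex genes, all 3 passenger genes, 9 of 11 spindle genes and 4 of 6 cyclin and kinase genes were called. Only 3 of 7 kinetochore genes and neither Mki67 nor Top2a were. Ccnb2 ran from 248 through a median of 296 to 319 CPM in the 6 Ly6Chi libraries and stood at 136, 187, 31.2, 46.8 and 48.8 CPM in Ly6Clo libraries 1 to 5. The groups were apart, and the log2 fold change was 1.90 ± 0.28 (adjusted p = 1.7e-05). Plk1, polo-like kinase 1, ran from 32.3 through 43.4 to 76.6 CPM in Ly6Chi and stood at 17.3, 31.6, 7.58, 7.31 and 6.97 CPM in Ly6Clo cells, a log2 fold change of 1.92 ± 0.33 (adjusted p = 7.52e-05) with no overlap. Ccna2 was higher by 1.51 ± 0.26 (adjusted p = 6.02e-05), the third gene without overlap, against 7.56% of all genes with Ly6Chi wholly above Ly6Clo. Cenpa, the centromeric histone, was higher by 1.18 ± 0.24 (adjusted p = 0.000385).

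The 4 genes followed throughout were not called between Ly6Chi and Ly6Clo cells: Mki67 differed by 0.45 ± 0.27 (adjusted p = 0.22), Top2a by 0.90 ± 0.44 (adjusted p = 0.133), Ccnb1 by 0.94 ± 0.39 (adjusted p = 0.0731) and Cdk1 by 0.37 ± 0.36 (adjusted p = 0.466) on the log2 scale. Cenpk, of the inner kinetochore, had the largest p, with 0.26 ± 0.37 (adjusted p = 0.634). Without litter 93 the median log2 fold change was 2.04 and 34 genes were called. The count was 9 without litter 100, 6 without litter 108, and 15 without either Ly6Clo normoxia 3 or Ly6Clo normoxia 5. The shares of all genes called under these settings are not given, so the counts may reflect a change over the whole table. Mki67 was called without Ly6Chi normoxia 2 (adjusted p = 0.0493), Top2a without Ly6Chi normoxia 1 (0.0375) or Ly6Clo normoxia 2 (0.0323), and Ccnb1 without Ly6Clo normoxia 2 (0.0258). Neutrophil marker genes moved with this comparison: 11 of the 12 tested were called higher in Ly6Chi cells, their summed level was 1580 to 3199 CPM in Ly6Chi and 236 to 670 CPM in Ly6Clo cells, and Elane, Ctsg and Ly6g were at 0 in every normoxic Ly6Clo library. Of 10 endothelial marker genes, 7 were called higher in Ly6Chi cells and 1 lower, and of 9 lymphoid genes 1 lower. The part of these cells in the result was not tested.

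AM and Ly6Chi cells differed in normoxia in both directions among the 36 genes, in shares no larger than over all genes. In AM minus Ly6Chi, 8 of the 36 genes were called higher in AM and 4 lower, against 24.0% and 28.3% of all genes tested, and the median log2 fold change was 0.30 (-0.05 over all genes). This median was 0.12 without AM normoxia 4, 0.16, 0.14 and 0.50 without Ly6Chi normoxia 1, 2 and 6. The 3 kinetochore genes Spc25, Cenpk and Cenpf, the checkpoint gene Mad2l1, and Ube2c, Birc5, Cdk1 and Mki67 were higher in AM. The 4 that were lower in AM were Cdc20, which activates the anaphase-promoting complex, the B-type cyclin gene Ccnb2, and Kif20a and Racgap1, which act in cytokinesis. The plot of the differences between AM and Ly6Chi orders the 36 genes from Spc25 to Kif20a.

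**Figure D2:**
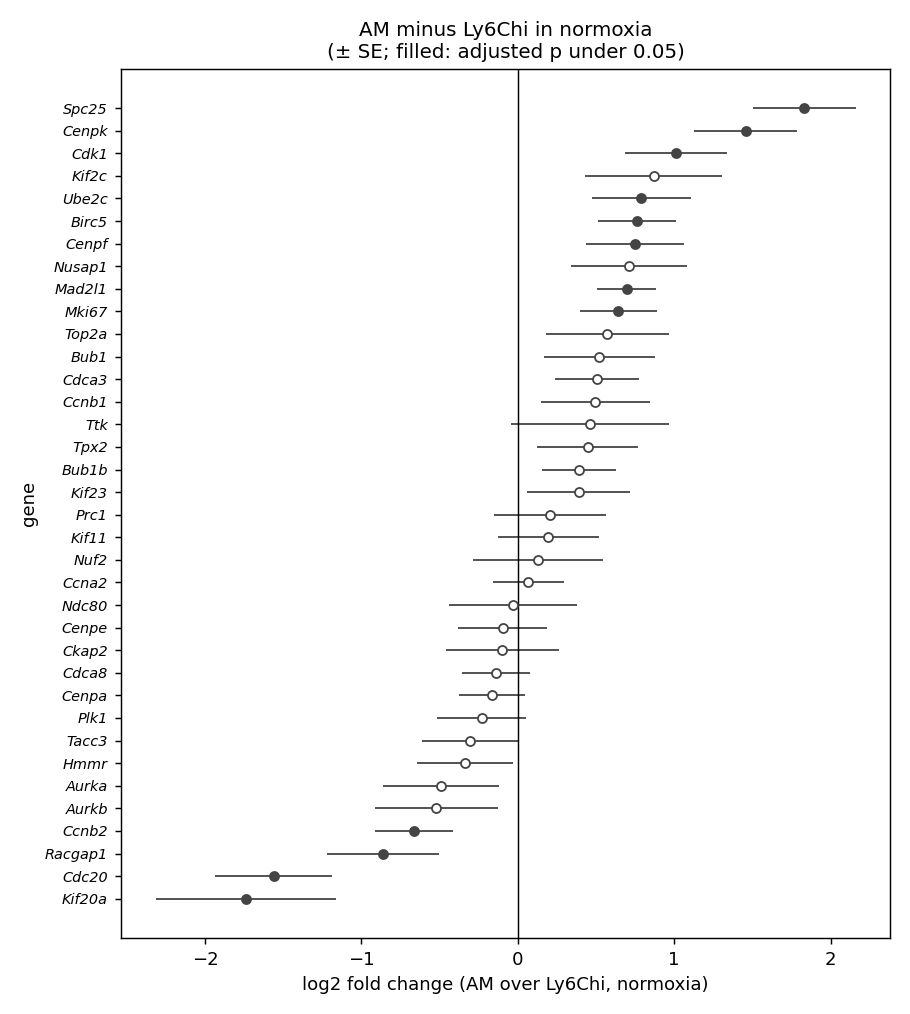
Each point is the log2 fold change of 1 gene between normoxic AM and Ly6Chi cells (horizontal axis, above 0 for higher in AM) with its SE, genes in order (vertical axis), and filled points have an adjusted p under 0.05. The differences run from 1.83 (Spc25) to -1.74 (Kif20a), with 8 filled points above 0 and 4 below.

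Spc25 ran from 112 through a median of 190 to 261 CPM in normoxic AM and from 28.2 through 44.8 to 104 CPM in normoxic Ly6Chi cells. All 6 AM libraries lay above all 6 Ly6Chi libraries, and the log2 fold change was 1.83 ± 0.33 (adjusted p = 6.76e-05). Cdc20 ran from 10.2 through 22 to 32.8 CPM in AM and from 40.7 through 54.2 to 85 CPM in Ly6Chi cells, again without overlap but in the other direction, with a log2 fold change of -1.56 ± 0.37 (adjusted p = 0.00104). Ccnb2 ran from 96.5 through 209 to 240 CPM in AM, below the lowest Ly6Chi library at 248 CPM, with a log2 fold change of -0.66 ± 0.25 (adjusted p = 0.0291). Cenpk ran from 30.5 through 62.8 to 83.6 CPM in AM, above the highest Ly6Chi library at 27.1 CPM, with a log2 fold change of 1.46 ± 0.33 (adjusted p = 0.000591). Over all genes, 11.1% lay wholly higher and 13.9% wholly lower in AM.

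**Figure D3:**
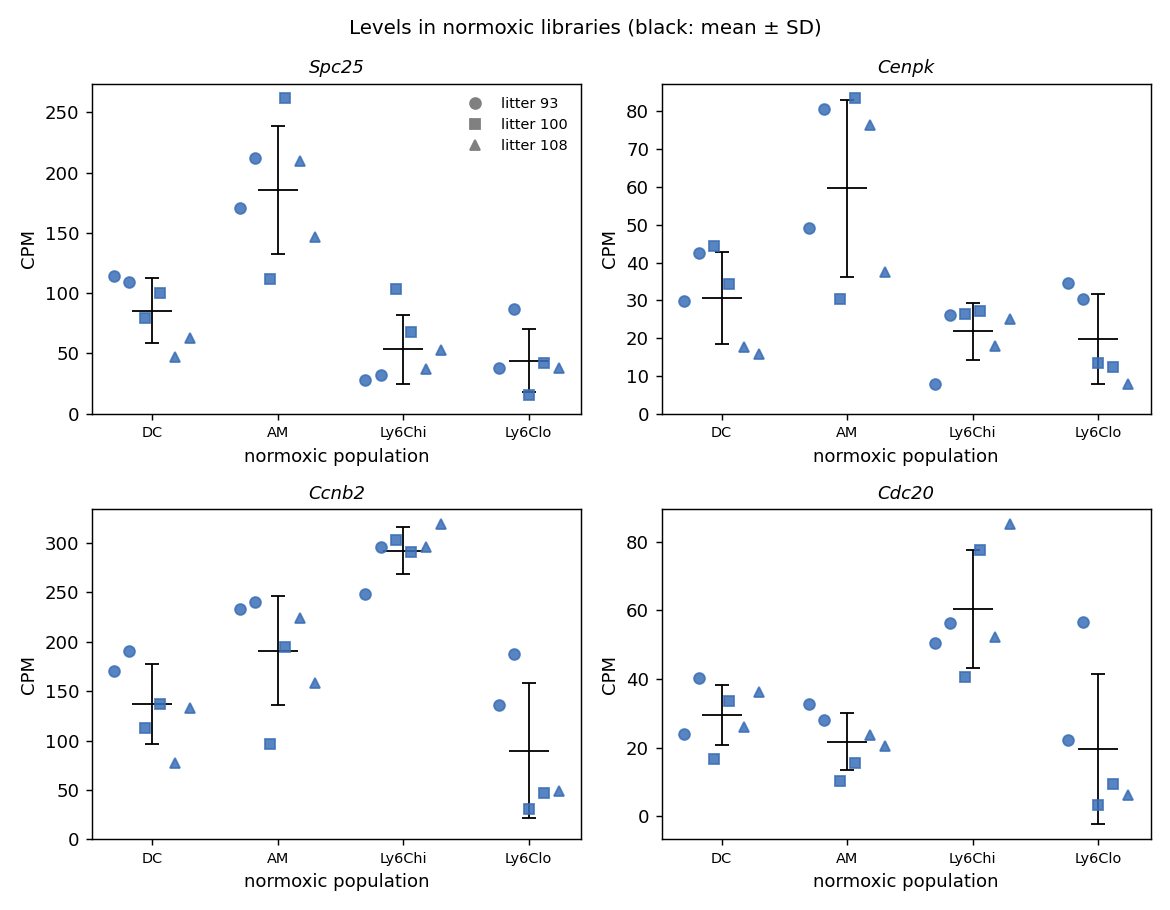
Levels in CPM (vertical axes) of Spc25, Cenpk, Ccnb2 and Cdc20 in each normoxic library, by population (horizontal axes) and litter (symbols), with black bars for mean ± SD. AM lie above Ly6Chi for Spc25 and Cenpk and below Ly6Chi for Ccnb2 and Cdc20 in every library.

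Of the remaining genes followed in AM against Ly6Chi, Mad2l1 was higher in AM by 0.70 ± 0.19 (adjusted p = 0.00304), Cdk1 by 1.01 ± 0.33 (adjusted p = 0.0131) and Mki67 by 0.64 ± 0.25 (adjusted p = 0.0321). Top2a differed by 0.57 ± 0.39 and Ccnb1 by 0.50 ± 0.35 on the log2 scale, neither called, and Ndc80 had the largest p, at -0.03 ± 0.41. Kif20a was lower in AM by 1.74 ± 0.58 on the log2 scale (log2 fold change -1.74, adjusted p = 0.0145) and Racgap1 had a log2 fold change of -0.86 ± 0.36 (adjusted p = 0.0482). Leaving out AM normoxia 4 or 6, or Ly6Chi normoxia 1 or 2, took the adjusted p of Mki67 to 0.0606, 0.0594, 0.0884 and 0.0837, and leaving out Ly6Chi normoxia 4 took that of Ccnb1 to 0.0370. Without litter 108 the test called 6 genes in place of 12. Of 12 neutrophil marker genes tested, 10 were called lower in AM than in Ly6Chi cells (summed level 206 to 858 CPM in AM), as were 5 of 9 lymphoid genes with 1 higher, and their part in these differences was not tested.

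The mean level of the 36 genes in normoxic DC lay below those of AM and Ly6Chi cells and above that of Ly6Clo cells. In AM minus DC, 14 of 36 genes were called higher in AM, against 22.4% of all genes tested, and none was called lower, where 27.5% of all genes were. The median log2 fold change was 0.59 (-0.05 over all genes). Genes of the checkpoint or the anaphase-promoting complex took 5 of the 14 calls. Bub1b, the checkpoint kinase BubR1, ran from 62.6 through 96.8 to 130 CPM in AM and from 18.4 through 42.6 to 64.1 CPM in DC, so that 1 DC library reached into the AM range, with a log2 fold change of 1.24 ± 0.24 (adjusted p = 0.000151). Birc5 was higher by 1.16 ± 0.25 (adjusted p = 0.00053), Mad2l1 by 0.76 ± 0.19 (adjusted p = 0.00169), Cdca3 by 1 ± 0.27 (adjusted p = 0.00421), Mki67 by 0.82 ± 0.25 (adjusted p = 0.00807) and Ccnb1 by 1.15 ± 0.36 (adjusted p = 0.00989). Top2a (0.30 ± 0.39, adjusted p = 0.545) and Cdk1 (0.55 ± 0.32, adjusted p = 0.165) were not called, and Aurkb, Aurora kinase B, had the largest p (-0.02 ± 0.40, adjusted p = 0.976). Ube2c was the only 1 of the 36 with all AM libraries above all DC libraries, against 9.65% of all genes, at 118 through 197 to 218 CPM in AM and 53.6 through 99.1 to 117 CPM in DC. Without litter 108 the count was 3. Of 10 endothelial markers 8 were called higher in AM than in DC, with summed levels of 283 to 1358 CPM and 121 to 420.0 CPM. Of 12 neutrophil markers 6 were called lower and 1 higher, of 9 lymphoid markers 5 lower and of 12 epithelial markers 3 higher, and the part of these cells was not tested.

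In DC minus Ly6Chi the median log2 fold change was -0.26 (-0.43, -0.41 and -0.12 without Ly6Chi normoxia 1, 2 and 6). Of the 36 genes, 6 were called lower in DC, a share near the 14.4% of all genes tested. They were Ccnb2 (-1.16 ± 0.25, adjusted p = 0.000999), Bub1b (-0.85 ± 0.24, adjusted p = 0.00905), Plk1 (-1.01 ± 0.29, adjusted p = 0.00942), Cenpa (-0.67 ± 0.21, adjusted p = 0.0181), Cdc20 (-1.07) and Hmmr (-0.98), a spindle-associated protein gene. Ccnb2, Cdc20, Cenpa and Hmmr were lower in every DC library than in every Ly6Chi library, against 7.05% of all genes. Mki67, Top2a, Ccnb1 and Cdk1 were not called, with log2 fold changes of -0.18 ± 0.25, 0.28 ± 0.39, -0.66 ± 0.36 and 0.46 ± 0.33, and Tacc3 had the largest p (-0.04 ± 0.30). The count was 3 without the litter term, 3 without Ly6Chi normoxia 6, and 1 without litter 108. Cenpa was not called without DC normoxia 1, DC normoxia 5 or Ly6Chi normoxia 6 (adjusted p = 0.0532, 0.0553 and 0.0576). Of 12 neutrophil markers 11 were called lower in DC than in Ly6Chi cells, of 10 endothelial markers 6 lower and 1 higher, and of 9 lymphoid markers 3 higher. Their part was not tested.

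In DC minus Ly6Clo, 12 of 36 genes were called higher in DC, against 11.7% of all genes tested, and the median log2 fold change was 0.87 against 0.02 over all genes. Kif23, a motor of the central spindle, ran from 49.8 through 74.8 to 113 CPM in DC and stood at 30.2, 47.1, 9.26, 46.8 and 13.1 CPM in Ly6Clo libraries 1 to 5. The groups were apart (6.98% of all genes lay wholly higher in DC), with a log2 fold change of 1.43 ± 0.37 (adjusted p = 0.00511). The kinetochore motor gene Cenpe was higher by 1.20 ± 0.32 (adjusted p = 0.00599), Ccna2 by 0.95 ± 0.26 (adjusted p = 0.00689) and the checkpoint kinase gene Bub1 by 1.40 ± 0.40 (adjusted p = 0.0119). Mki67, Top2a, Ccnb1 and Cdk1 were not called, at 0.27 ± 0.26, 1.18 ± 0.43, 0.28 ± 0.39 and 0.84 ± 0.35 on the log2 scale, and Bub1b had the largest p (-0.14 ± 0.26, adjusted p = 0.758). This count moved most with single libraries, and the shares of all genes called under the same settings are not given. It was 28 without Ly6Clo normoxia 2, and 4 without Ly6Clo normoxia 3 or 5, 5 without Ly6Clo normoxia 1 or 4, 6 without DC normoxia 1 and 7 without DC normoxia 2 or 4. Top2a was called without Ly6Clo normoxia 2 (adjusted p = 0.00954), without DC normoxia 5 (0.0321) and without Ly6Chi normoxia 1, 2, 4 or 6 (0.0234, 0.0362, 0.0473 and 0.0479), and Cdk1 without Ly6Clo normoxia 2 (0.0146). Without the litter term the count was 5. Of 9 lymphoid markers 4 were called higher in DC, of 12 neutrophil markers 4 higher and 2 lower, and of 12 epithelial markers 3 higher and 1 lower. Their part was not tested.

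The other genes of the mitotic machinery were read from lists that do not overlap the 36. Between normoxic AM and Ly6Clo cells, where 7.28% of all genes were called higher in AM, 17 of 33 further kinetochore genes were called higher in AM and 1 lower, led by the centromere genes Cenpw (log2 fold change 1.69 ± 0.29, adjusted p = 0.000128), Cenpq (1.31 ± 0.23, adjusted p = 0.000143) and Cenph (2.23 ± 0.40, adjusted p = 0.000176). Of 25 further spindle and cytokinesis genes, 11 were called higher, led by Kif15, Anln and Fam83d. Of 20 regulators of G2 and mitosis, 6 were called higher, among them Cks1b, which binds Cdk1 (1.02 ± 0.16, adjusted p = 5.26e-05), Foxm1, the transcription factor of the programme (2.22 ± 0.52, adjusted p = 0.00304), and Nek2. Of 11 condensin, cohesion and separase genes, 4 were called higher, and of 15 subunits of the anaphase-promoting complex, 1 was, Anapc11, at 0.42 ± 0.12 (adjusted p = 0.0145), with a list median of 0.00 and a share near that of all genes. Of 37 S phase genes, 26 were called higher, led by Gmnn, Gins1 and Mcm10, with a list median of 0.98. Between Ly6Chi and Ly6Clo cells, where 15.7% of all genes were called higher in Ly6Chi, 7 of 33 kinetochore, 6 of 25 spindle, 1 of 20 regulator, 3 of 15 complex and 12 of 37 S phase genes were called higher, and 0 of 11 condensin genes (4 at an unadjusted p under 0.05). The lists were counted with edgeR only.

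Set against the S phase genes, the mitotic genes took different weights in the populations. The mean log2 CPM of the 36 genes minus that of the S phase list was 0.55 ± 0.32 (SD, n = 6) in normoxic Ly6Chi cells and 0.31 ± 0.25 (n = 6) in AM, but -0.26 ± 0.23 (n = 6) in DC and -0.11 ± 0.55 (n = 5) in Ly6Clo cells. Every normoxic Ly6Chi library was above 0 (0.13 to 1.01) and every normoxic DC library below it (-0.66 to -0.02), so these groups did not overlap. In hyperoxia the same differences were 0.57 ± 0.30 in Ly6Chi cells, 0.20 ± 0.50 in AM, -0.06 ± 0.34 in DC and -0.63 ± 0.55 in Ly6Clo cells (n = 5 each). The measure compares lists of different genes and was not tested.

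The second question of the design is what hyperoxia did within each population. In AM, all 36 genes were lower in hyperoxia by sign, against 51.2% of all 9986 genes tested, with a median log2 fold change of -1 against -0.01 over all genes, but none was called. Over all genes, 11 were called (0.110%), all of them higher in hyperoxia. At an unadjusted p under 0.05, 23 of the 36 genes were lower, against 4.68% of all genes. DESeq2 called 7 of the 36 lower at an adjusted p under 0.05 (among them Ccna2, adjusted p = 0.00903, Tpx2, Cdca8 and Racgap1) and limma voom 0. The share of all genes that DESeq2 called in this comparison is not given, so the 7 were not set against it. The 36 genes vary together from library to library, so their counts are not independent.

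In hyperoxic AM libraries 1 to 5, Mki67 stood at 226, 206, 141, 99.1 and 57.5 CPM, against 160 through a median of 199 to 278 CPM in the 6 normoxic libraries. The 2 hyperoxic libraries of litter 93 lay within the normoxic range and the other 3 below it, and the log2 fold change was -0.58 ± 0.23 (adjusted p = 0.382). Top2a stood at 206, 182, 47.7, 43 and 17.1 CPM against 111 through 162 to 188 CPM, a log2 fold change of -1.07 ± 0.43 (adjusted p = 0.442). Cdk1 stood at 221, 218, 19.1, 78.9 and 61.8 CPM against 88.0 through 191 to 214 CPM (-0.93 ± 0.39, adjusted p = 0.462). Both genes showed the same split, with litter 93 above the normoxic median and the other 3 libraries below the whole normoxic range. Ccnb1 had the largest p, at 115, 79.5, 28.6, 56.1 and 35.5 CPM against 45.7 through 77.4 to 89.0 CPM (-0.33 ± 0.28, adjusted p = 0.749). The smallest p-values belonged to Tpx2, which activates Aurora kinase A on the spindle (-1.08 ± 0.25, adjusted p = 0.161), the passenger gene Cdca8, borealin (-1.03 ± 0.24, adjusted p = 0.161), Ccna2 (-1.22 ± 0.29, adjusted p = 0.17) and Racgap1 (-1.23 ± 0.33, adjusted p = 0.202). For none of the 36 were the groups apart, where 0.431% of all genes lay wholly lower in hyperoxia.

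**Figure D4:**
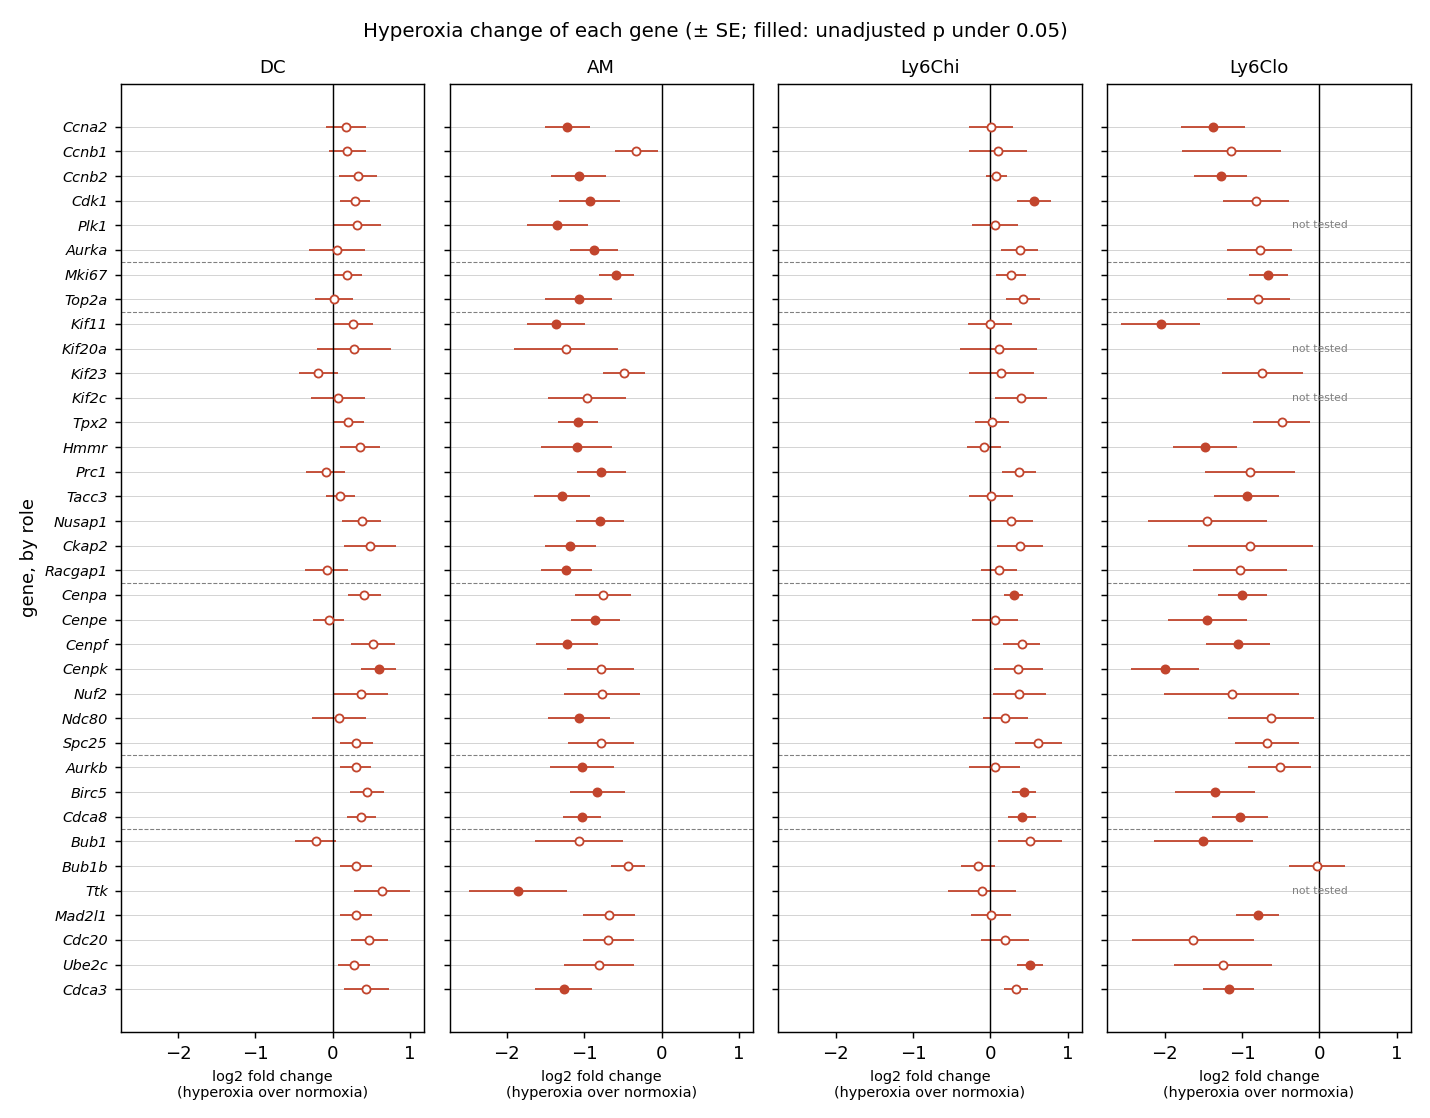
Log2 fold change between hyperoxia and normoxia (horizontal axes) of each of the 36 genes (vertical axis, grouped by role with dashed lines) in each sorted population, with SE, and filled points have an unadjusted p under 0.05. Points lie below 0 for 36 of 36 genes in AM and 32 of 32 in Ly6Clo cells, and above 0 for 31 of 36 in DC and 32 of 36 in Ly6Chi cells; none passed the adjusted test.

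Within litters, the AM difference was uneven. The mean log2 CPM of the 36 genes in hyperoxic AM was 6.56 and 6.26 in litter 93, 4.07 in litter 100 and 4.87 and 4.18 in litter 108. Minus the normoxic mean of the same litter this was -0.14 in litter 93, -2.04 in litter 100 and -1.50 in litter 108. All 36 genes were lower in hyperoxia within litter 100 and within litter 108, and 21 of 36 within litter 93. The 3 hyperoxic AM libraries with fewer than 1000000 counts are 2 of litter 93 and the 1 of litter 100, so they lie at both ends of the range. Without the libraries under 1000000 counts, which leaves the 2 hyperoxic libraries of litter 108, the median log2 fold change was -1.43, without litter 93 it was -1.58, and 0 genes were called in either case.

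**Figure D5:**
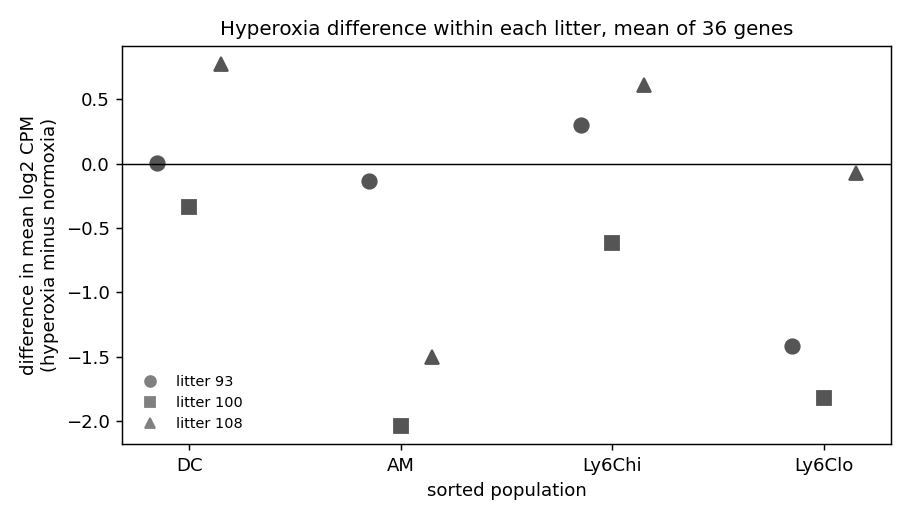
Each point is the difference in mean log2 CPM of the 36 genes between hyperoxic and normoxic libraries of 1 litter (vertical axis) in each sorted population (horizontal axis), with symbols for litters 93, 100 and 108; litter 100 has 1 hyperoxic library. In AM the points are -0.14, -2.04 and -1.50, and in Ly6Clo cells -1.42, -1.82 and -0.07, while DC and Ly6Chi cells have points on both sides of 0.

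In hyperoxic AM the lists outside the 36 leaned to the same sign. All 36 S phase genes tested were lower by sign, with a median of -0.89, 28 of them at an unadjusted p under 0.05 and none called. Mcm6, of the replicative helicase, came closest (-0.96 ± 0.18, adjusted p = 0.0533). Lower by sign were 30 of 32 further kinetochore genes (led by Kntc1, -1.61 ± 0.44, adjusted p = 0.203), 22 of 23 spindle genes (Cit, -1.01 ± 0.35, adjusted p = 0.317), 17 of 18 regulators (Foxm1, -1.71 ± 0.46, adjusted p = 0.203) and 10 of 11 condensin and cohesion genes (Ncapd3, -0.81 ± 0.23, adjusted p = 0.214). The subunits of the anaphase-promoting complex had a median of -0.12, with 12 of 15 lower by sign. Cdkn1a, which encodes the inhibitor p21 of cyclin-dependent kinases, rose in hyperoxic AM, from 108 ± 25.7 CPM (SD, n = 6) to 269 ± 73.1 CPM (n = 5), with a log2 fold change of 1.37 ± 0.17 (adjusted p = 0.00184). The ranges, 76.3 to 137 CPM and 189 to 379 CPM, did not overlap.

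Markers of other cell types were read beside the AM result. Of the epithelial markers, 11 of 11 tested were lower in hyperoxia by sign and none was called, with a summed level of 517 to 3099 CPM in normoxia and 239 to 2297 CPM in hyperoxia. The summed endothelial level was 283 to 1358 CPM and 219 to 1209 CPM, the erythroid level 34.8 to 301 CPM and 41.5 to 329.8 CPM, the neutrophil level 206 to 858 CPM and 220.1 to 1410 CPM, and the lymphoid level 20.3 to 160.1 CPM and 17.7 to 64.9 CPM. Slc4a1 (erythroid) and Ly6g (neutrophil) were at 0 in every AM library. The part of these cells in the result was not tested.

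In Ly6Clo cells, 32 of the 36 genes passed the filter on low counts (Plk1, Kif20a, Kif2c and Ttk did not), and none was called, where 0 of 10188 genes were called at all. All 32 were lower in hyperoxia by sign, against 52.1% of all genes, with a median log2 fold change of -1.03 against -0.01 over all genes. At an unadjusted p under 0.05, 15 were lower, against 2.34% of all genes, and DESeq2 and limma voom called 0. Cenpk stood at 13.7, 4.94, 1.60, 1 and 2.73 CPM in hyperoxic libraries 1 to 5 and at 34.5, 30.5, 13.5, 12.4 and 7.85 CPM in normoxic libraries 1 to 5, with 1 hyperoxic library inside the normoxic range and a log2 fold change of -2.00 ± 0.44 (adjusted p = 0.86). Kif11, the motor that pushes spindle poles apart, stood at 3.23, 8.23, 3.20, 4.02 and 1.64 CPM against 21.6, 31.6, 5.90, 24.8 and 9.59 CPM (-2.05 ± 0.51, adjusted p = 0.86). Here too 1 hyperoxic library, the second, reached above the lowest normoxic one. Ccnb2 (-1.28 ± 0.34) and Cdca3 (-1.17 ± 0.33) followed, and Mki67 (-0.66 ± 0.25), Top2a (-0.79 ± 0.41), Ccnb1 (-1.14 ± 0.64) and Cdk1 (-0.82 ± 0.42) had the same adjusted p of 0.86. Bub1b had the largest p (-0.03 ± 0.37, adjusted p = 0.996).

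Mean levels of the 36 genes in hyperoxic Ly6Clo libraries were 4.53 and 3.87 in litter 93, 2.23 in litter 100 and 4.23 and 3.65 in litter 108. The library of litter 100 had 647844 counts, and in it Plk1, Bub1, Kif20a, Kif2c, Ckap2, Birc5, Ttk and Nuf2 had a count of 0. Without it, the only one of these libraries under 1000000 counts, the median log2 fold change was -0.83. Within litters the difference was -1.42 in litter 93, -1.82 in litter 100 and -0.07 in litter 108, where the normoxic group is 1 library. All 36 genes were lower within litter 93, 32 of 36 within litter 100 and 19 of 36 within litter 108. For none of the tested genes were the groups apart, where 0.393% of all genes lay wholly lower. Of 30 S phase genes tested in Ly6Clo cells, 28 were lower by sign (median -0.51, 8 at an unadjusted p under 0.05), and Cdkn1a had a log2 fold change of 0.79 ± 0.19 (adjusted p = 0.86). The summed lymphoid marker level was 168 to 654 CPM in normoxia and 44.8 to 196 CPM in hyperoxia, and the epithelial level 635 to 1994 CPM and 217 to 1978 CPM. The summed neutrophil level was 236 to 670 CPM in normoxia and 214 to 681 CPM in hyperoxia. Of the 14 neutrophil genes, Elane and Ly6g were at 0 in every Ly6Clo library, and the part of other cells was not tested.

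In DC and Ly6Chi cells the signs leaned the other way, with smaller differences. In DC, 31 of 36 genes were higher in hyperoxia by sign, against 50.1% of all 11274 genes, with a median of 0.29. None was called (0 of all genes were), and 1 was higher at an unadjusted p under 0.05, against 4.11% of all genes, with 0 called by DESeq2 and limma voom. That gene was Cenpk, at 53.4, 56.9, 30.2, 31.1 and 42.7 CPM in hyperoxia and 15.7 through 32.1 to 44.4 CPM in normoxia (0.60 ± 0.23, adjusted p = 0.52). Birc5 (0.44 ± 0.22), Cdca8 (0.37 ± 0.19) and Cdc20 (0.47 ± 0.24) followed, with adjusted p = 0.584, 0.586 and 0.586. Mki67 differed by 0.19 ± 0.19, Ccnb1 by 0.19 ± 0.24 and Cdk1 by 0.29 ± 0.19 on the log2 scale, and Top2a had the largest p (0.02 ± 0.24, adjusted p = 0.987). Within litters the difference in the mean of the 36 was 0.00 in litter 93, -0.34 in litter 100 and 0.77 in litter 108. Without litter 108 the median log2 fold change was -0.11, and it was 0.12 without DC normoxia 5, 0.45 without DC hyperoxia 3 and 0.17 without DC hyperoxia 5.

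In Ly6Chi cells, 32 of 36 genes were higher in hyperoxia by sign, against 47.6% of all 10844 genes, with a median of 0.23, and none was called by edgeR (0 of all genes), DESeq2 or limma voom. At an unadjusted p under 0.05, 5 were higher, against 2.86% of all genes. Ube2c stood at 112, 106, 161, 146 and 174 CPM in hyperoxia and at 70.8 through 97.0 to 152 CPM in normoxia, with overlapping groups (0.51 ± 0.16, adjusted p = 0.758). Birc5 (0.43 ± 0.15), Cenpa (0.30 ± 0.12) and Cdk1 (0.56 ± 0.22) shared that adjusted p, as did Top2a (0.42 ± 0.22). Mki67 differed by 0.27 ± 0.19 and Ccnb1 by 0.09 ± 0.38, and Ccna2 had the largest p (0.01 ± 0.28, adjusted p = 0.996). Within litters the difference was 0.30 in litter 93, -0.62 in litter 100 and 0.62 in litter 108, and without litter 108 the median was -0.05. It was 0.06 without Ly6Chi normoxia 5, 0.46 without Ly6Chi hyperoxia 3 and 0.15 without Ly6Chi hyperoxia 5. In neither DC nor Ly6Chi cells did any of the 36 have groups apart, where 0.142% and 0.0369% of all genes lay wholly higher. Cdkn1a had log2 fold changes of 0.40 ± 0.18 in DC (adjusted p = 0.546) and 0.93 ± 0.28 in Ly6Chi cells (adjusted p = 0.758). In Ly6Chi cells, 9 of 10 endothelial and 2 of 2 mesenchymal markers tested were lower in hyperoxia by sign, and 4 of 4 lymphoid markers higher. Their summed endothelial level was 349 to 940 CPM in normoxia and 18.0 to 558 CPM in hyperoxia. In DC, 8 of 9 endothelial markers were lower and 9 of 9 neutrophil markers higher. None of these was called, and the part of other cells was not tested.

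Whether the hyperoxia difference of a gene itself differed among the 4 populations was tested in a fit of all 43 libraries. None of the 36 genes was called, where 0 of 12529 genes were, and DESeq2 and limma voom called none of the 36. At an unadjusted p under 0.05, 17 of the 36 genes stood out, against 4.92% of all genes, and the smallest adjusted p was that of Kif11 (0.257). For AM minus the mean of the other 3 populations, all 36 differences were below 0, against 50.4% of all genes, with a median of -0.64, and none was called (0.0239% of all genes were in either direction). In this contrast 5 genes had an unadjusted p under 0.05 and a lower difference, against 2.98% of all genes, and DESeq2 and limma voom called 0. Ttk had the smallest p (-2.11 ± 0.71, adjusted p = 0.559), followed by Tpx2 (-0.98 ± 0.42), Cdca3 (-0.96 ± 0.43) and Cdca8 (-0.76 ± 0.35). Mki67 was at -0.45 ± 0.32, Top2a at -0.65 ± 0.52, Cdk1 at -0.71 ± 0.45, and Ccnb1 had the largest p (-0.12 ± 0.48, adjusted p = 1). The median was -1.78 without litter 93, -1.57 without the libraries under 1000000 counts and 0.03 without litter 108.

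Averaged over the 4 populations, all 36 genes were lower in hyperoxia by sign, against 57.3% of all genes, with a median of -0.34 (-0.04 over all genes, and -0.22 for the 36 without Ly6Clo normoxia 2). Kif11 was the 1 gene called, with a mean log2 fold change of -0.83 ± 0.21 (adjusted p = 0.0236), against 0.678% of all genes called lower. Its levels were lower in hyperoxia in AM (49.2 ± 15 CPM, n = 6, to 21.8 ± 15.1 CPM, n = 5) and Ly6Clo cells (18.7 ± 10.7 to 4.06 ± 2.48 CPM, n = 5 each). In DC (35.9 ± 11.6 to 43.3 ± 20.8 CPM) and Ly6Chi cells (42.7 ± 18.4 to 45.2 ± 22.6 CPM) they were not. The call was lost without DC hyperoxia 3 (adjusted p = 0.0528), without Ly6Chi hyperoxia 3 (0.0557), without the litter term (0.0605), without litter 108 (0.0566) and without litter 100 (0.318). Cenpe (-0.58 ± 0.20, adjusted p = 0.0931), Plk1 (-0.66 ± 0.24, adjusted p = 0.12) and Racgap1 (-0.59 ± 0.22, adjusted p = 0.129) came next. Mki67 (-0.23 ± 0.14), Top2a (-0.39 ± 0.23), Ccnb1 (-0.25 ± 0.22) and Cdk1 (-0.22 ± 0.20) were not called, and Spc25 had the largest p (-0.09 ± 0.22, adjusted p = 0.867). At an unadjusted p under 0.05, 9 of 36 were lower, against 7.81% of all genes. Of 37 S phase genes 4 fell, among them Mcm4 (-0.48 ± 0.12, adjusted p = 0.0203), Dtl (-1.21 ± 0.31, adjusted p = 0.0236) and Mcm5 (-0.46 ± 0.13, adjusted p = 0.0473), and Cdkn1a rose by 0.88 ± 0.11 (adjusted p = 5.81e-06).

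Within groups, libraries that were high for one of these genes were mostly high for the others. After the differences between groups and between litters were taken away, log2 CPM was correlated over the 43 libraries. The correlation had a median of 0.64 over the 630 pairs of members, from -0.18 to 0.90. With the mean of the other members, Cdca3 (0.91) and Cdk1 (0.90) had the highest correlation and Bub1b the lowest (0.23), followed by Cenpe (0.55) and Kif20a (0.57). Bub1b was also the gene with the largest p in Ly6Clo hyperoxia and in DC against Ly6Clo. These correlations are a description: each gene's points come from the same 43 libraries, whose depth differs.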

How the data were processed

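RNA of sorted lung mononuclear phagocytes was amplified with SMART-Seq V4 and made into libraries with Nextera XT, per the labels' protocols, without molecular identifiers. The deposited values are read counts per Ensembl gene, for 43 libraries in 1 table. TopHat, HTSeq 0.4.1, FastQC, Picard, SAMtools and build NCBIM37 are named in the submitters' processing notes. Genes without a symbol held 0.828% of counts, and no pair of libraries had identical counts.

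Counts were tested with edgeR 4.0.16 (R 4.3.3), by the quasi-likelihood test after TMM scaling and filterByExpr (minimum count 10, minimum total 15), with Benjamini-Hochberg adjustment over all genes tested. Hyperoxia was fitted within each population, pairs of populations within normoxia, and population by oxygen over all libraries, each with litter as a term. The litter number was used as labelled, although litters were mixed before pups were assigned. The deviations of normoxic and hyperoxic libraries of 1 litter number correlated at 0.117 to 0.283 in all 12 combinations of population and litter. Correlations between libraries of different litters are not given beside them, so these values do not measure the part of litter. Levels are CPM on TMM-scaled totals, and log2 CPM used a prior count of 1. Fold changes used a prior count of 0.125. Counting error limits the precision of the low counts. DESeq2 1.42.0, limma 3.58.1 (voom), other scalings, no filter, no litter term, and omission of litters, small libraries and single libraries were alternatives. The edgeR fits were tested on simulated data.

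The 36 genes, all lists and the contrast of AM with the mean of the other populations were chosen with earlier results of these data known. Any of the 36 may be named. Full statistics are given for Mki67, Top2a, Ccnb1 and Cdk1, the 4 smallest p-values and the largest p. Of other lists, up to 3 called genes with the smallest p are named, or the gene with the smallest p where none was called. Cdkn1a is given for hyperoxia within each population and averaged, and the sorting antigens are given as levels only. Exon lengths and overlaps come from a GRCm38 annotation, which differs from the build of the counts, and promoters from RefSeq on GRCm38.p6. Figures were drawn with matplotlib 3.10.9.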

Additional observations from a re-analysis of the deposited data

Results flagged for a closer look

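A single library lay far from the other 4 of its group for 4 of 40 gene and group combinations tested by Dixon's criterion, which chance meets in about 1 in 20 groups. Mki67 was at 212 CPM in DC hyperoxia 1, with the next library at 123 CPM, and Top2a was at 226 CPM in the same library, with the next at 112 CPM. Mki67 was at 189 CPM in Ly6Chi hyperoxia 4, with the next at 133 CPM. Top2a was low in Ly6Chi hyperoxia 1, at 74.9 CPM, with the next at 120 CPM.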

How the results depend on the processing

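Without the filter on low counts the genes called numbered 26 for hyperoxia in AM, 10 in Ly6Clo cells, 22 for AM minus DC, 15 for DC minus Ly6Chi, 26 for DC minus Ly6Clo, 29 for the effect by population, 4 for AM minus the other 3 and 11 averaged; in those fits edgeR no longer used each gene's own spread. DESeq2 called 7 for hyperoxia in AM and 20 for DC minus Ly6Clo, and limma voom 19 for AM minus Ly6Chi and 0 averaged. Without the replicate block (no litter term) the counts were 3 for DC minus Ly6Chi, 5 for DC minus Ly6Clo and 0 averaged; it moved no other count by over 1.5 times. Without litter 93 they were 11 for DC minus Ly6Chi and 21 for DC minus Ly6Clo, and the medians were 2.04 for Ly6Chi minus Ly6Clo and -1.78 for AM minus the other 3. Without litter 100 they were 13 for AM minus Ly6Clo, 3, 2 and 9 for DC minus Ly6Chi, DC minus Ly6Clo and Ly6Chi minus Ly6Clo, and 0 averaged. Without litter 108 they were 3 for AM minus DC, 6 for AM minus Ly6Chi, 1, 3 and 6 for the same 3 pairs. Without libraries under 1000000 counts the averaged count was 2 and the median of AM minus the other 3 was -1.57; DC and Ly6Chi hyperoxia have no such library, so this was not run there. Leaving out single libraries gave 3 to 8 for DC minus Ly6Chi, 4 to 28 for DC minus Ly6Clo, 15 to 31 for Ly6Chi minus Ly6Clo and 0 to 1 averaged. A correction for a limit of 2 counts per exonic base, chosen after seeing the data, moved no count of calls by over 1.5 times. Beyond the fits without the filter and those with fewer libraries, the cause was not tested. All these counts are of the mitotic genes. The shares of all genes called under the same settings are not given, here or where such counts appear in the Results. A changed count may therefore reflect a change over the whole table, and was not read as particular to the mitotic genes.

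Signs of small single-gene differences turned as follows. Without litter 108, for hyperoxia in DC: Mki67 -0.01, Top2a -0.14, Ccnb1 -0.23, Cdk1 -0.04 and Birc5 -0.01; in Ly6Chi cells Ccnb1 -0.45 and Ccna2 -0.52; for AM minus the other 3 Mki67 0.04, Ccnb1 0.64 and Cdca8 0.07; for AM minus DC Aurkb 0.04; for AM minus Ly6Chi Ndc80 0.33; for DC minus Ly6Chi Mki67 0.16 and Tacc3 0.19; for Ly6Chi minus Ly6Clo Cenpk -0.09. Without litter 100, for DC minus Ly6Chi Mki67 0.07 and Tacc3 0.15; for AM minus Ly6Chi Ndc80 0.30; for AM minus Ly6Clo Cdc20 -0.05; for Ly6Chi minus Ly6Clo Mki67 -0.01, Cdk1 -0.18 and Cenpk -0.21; averaged Cdk1 0.01 and Spc25 0.18. Without litter 93, Mki67 was 0.00 for hyperoxia in Ly6Chi cells, Bub1b 0.32 in Ly6Clo cells, Aurkb 0.16 for AM minus DC and Top2a -0.23 for DC minus Ly6Chi. Without the replicate block, Top2a was -0.01 for hyperoxia in DC, Bub1b 0.09 in Ly6Clo cells, Ndc80 0.16 for AM minus Ly6Chi and Tacc3 0.04 for DC minus Ly6Chi. Without small libraries, Aurkb was 0.17 and Ndc80 0.19. With RLE size factors both were 0.00, with the count limit correction both 0.02, with limma voom Ndc80 was 0.33 and Tacc3 0.12, and with DESeq2 Ccna2 was 0.00 for hyperoxia in Ly6Chi cells. Leaving out single libraries gave ranges across 0 for Top2a (-0.16 to 0.16) and Ccnb1 (-0.01 to 0.32) for hyperoxia in DC, Ccnb1 (-0.15 to 0.46) and Ccna2 (-0.21 to 0.35) in Ly6Chi cells and Bub1b (-0.33 to 0.20) in Ly6Clo cells. The same held for Aurkb (-0.31 to 0.17) for AM minus DC, Ndc80 (-0.25 to 0.23) for AM minus Ly6Chi, Tacc3 (-0.18 to 0.17) for DC minus Ly6Chi, Ccnb1 (-0.02 to 0.60) for DC minus Ly6Clo, Ccnb1 (-0.34 to 0.15) for AM minus the other 3 and Spc25 (-0.18 to 0.02) averaged. None of these differences was called.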
